A study of Mus musculus with 10 samples.

Results

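Transcripts of the phagocyte NADPH oxidase were measured in adult microglia, *in vitro* microglia and slice microglia through *Cybb*, *Cyba*, *Ncf1*, *Ncf4* and *Rac2*. These 5 genes were chosen by symbol, from 18292 gene symbols listed in the count tables, because they encode parts of 1 enzyme. All 5 were counted in each of the 10 libraries, and all 5 were among the 12157 genes tested after the filter on low counts.

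The phagocyte NADPH oxidase passes electrons from NADPH across a membrane to oxygen and so makes superoxide. *Cybb* encodes its catalytic subunit NOX2, *Cyba* encodes the membrane partner that stabilises NOX2, *Ncf1* encodes the organiser and *Ncf4* the phosphoinositide-binding subunit of the cytosolic complex, and *Rac2* encodes the blood-cell GTPase that joins the complex when a cell is activated. Microglia, the resident macrophages of the brain, are a known source of superoxide made by this enzyme.

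Single-cell RNA sequencing was done on microglia of C57BL/6 mice, sorted as CD11b high and CD45 intermediate cells. Adult microglia were taken directly from adult brain, *in vitro* microglia came from mixed glial cultures of newborn cortex kept for 3 weeks, and slice microglia came from cultured brain slices of newborn pups kept in culture for 1 day, for 1 week or for 3 weeks. Every group was made of 2 libraries from separate biological samples, the labels name no transgene or treatment for any of them, and slices were pooled where a library needed more cells. Age differed together with culture, since adult microglia came from adult mice and all cultured cells from newborn mice, so that age and culture cannot be told apart in any comparison with adult microglia.

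After filtering, 19059 of 19637 barcodes were kept as cells. A library held 61 to 3799 cells and 385373 to 39689540 UMIs, that is, counted RNA molecules, and the 1 week slice libraries were the smallest with 148 and 61 cells. All 8 microglia markers were detected in all 10 libraries. Levels are given as CPM, UMIs scaled to a library total of 1000000. Microglia markers summed to 49861 and 49314 CPM in the adult libraries and to 10718 and 9285 in the *in vitro* libraries. In slices they summed to 8524 and 7668 after 1 day, 14506 and 16794 after 1 week, and 29110 and 23705 after 3 weeks. Neutrophil markers summed to 7831 and 22555 CPM in the 1 day slice libraries and to 40385 and 1033 in the 1 week slice libraries, against 22.8 to 211 in the other 6 libraries. In 1 day replicate 2 and 1 week replicate 1 the neutrophil sum was above the microglia sum. Border macrophage markers summed to 2270 and 2132 CPM in the *in vitro* libraries. Any 2 libraries shared at most 23 cell barcodes, and no pair shared more than 2.94% of the barcodes of its smaller library.

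*Cybb* was the oxidase gene whose level differed most between the groups and *Cyba* and *Ncf1* were called in no comparison. The gene lies on chromosome X from 9435252 to 9487771 on the minus strand (GRCm38, GENCODE M21), with no gene model overlapping it. The 250 bases before its RefSeq start are shown because its level spread over the widest range of the 5 genes. Those of *Ncf1*, which lies on chromosome 5 from 134220053 to 134229625, are shown for comparison. The RefSeq start of *Cybb* and the stretch before it lie inside the gene model given above, which on the minus strand begins at 9487771. Letters in capitals match, on either strand, CCAAT or an element bound by interferon regulatory factors, which was searched as GAAA, any 2 bases and GAAA.
Cybb, chrX:9469325-9469574, minus strand: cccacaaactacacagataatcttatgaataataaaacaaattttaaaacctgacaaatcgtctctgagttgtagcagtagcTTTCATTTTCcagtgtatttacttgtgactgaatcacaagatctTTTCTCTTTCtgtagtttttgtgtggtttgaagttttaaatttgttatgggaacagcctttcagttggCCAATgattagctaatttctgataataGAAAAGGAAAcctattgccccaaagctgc
Ncf1, chr5:134229626-134229875, minus strand: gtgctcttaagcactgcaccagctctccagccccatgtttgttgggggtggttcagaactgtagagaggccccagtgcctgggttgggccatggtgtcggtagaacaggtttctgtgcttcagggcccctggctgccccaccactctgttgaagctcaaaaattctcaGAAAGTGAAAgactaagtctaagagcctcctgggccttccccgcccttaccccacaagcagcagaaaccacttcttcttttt

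The *Cybb* stretch held 3 matches to the interferon regulatory element, at 168 to 159, 124 to 115 and 29 to 20 bases before the start, and 1 CCAAT at 56 to 52 bases before it. The *Ncf1* stretch held 1 such match, at 82 to 73 bases before the start. At least 1 match was found in 2.98% of 32851 RefSeq promoter stretches of this length, and CCAAT in 33.8%. The letters GAGGAA, the only form searched for a site of the macrophage factor PU.1, were absent from both stretches on either strand. In *Cybb* they stood 9 to 14 bases after the start on the other strand, as TTCCTC (chrX:9469299-9469326, capitals): gctgttttcatTTCCTCatcagaagaag. The stretch before *Cyba* (chr8:122432941-122433190) held none of these letters. These matches describe the sequence, and binding was not measured.

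*Cybb* levels in CPM, scaled between libraries by the TMM method, were 6.15 and 1.80 in adult microglia, from 84 and 14 UMIs. They were 209 and 188 in *in vitro* microglia. In slice microglia they were 104 and 149 after 1 day, 158 and 64.0 after 1 week, and 37.3 and 37.9 after 3 weeks. Both adult libraries lay below all 8 libraries of cultured cells, and the 3 week slice libraries lay below those of the other cultured groups. Means ± SD (n = 2) were 3.98 ± 3.08 in adult, 199 ± 14.8 in *in vitro*, 126 ± 31.7 in 1 day slice, 111 ± 66.6 in 1 week slice and 37.6 ± 0.435 in 3 week slice microglia. A level summed over a library does not tell more cells with the transcript from more transcript per cell; the shares of cells are given further on.

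*Cybb* was 46.6-fold higher in *in vitro* than in adult microglia (log2 fold change 5.54 ± 0.48, SE; edgeR adjusted p = 6.0e-06). Against adult microglia it was 29.7-fold higher in slices after 1 day (4.89 ± 0.47, adjusted p = 1.9e-05), 27.8-fold higher after 1 week (4.80 ± 0.50, adjusted p = 9.3e-05) and 8.82-fold higher after 3 weeks (3.14 ± 0.45, adjusted p = 0.00043). *Cybb* passed the threshold against adult microglia in all 4 groups of cultured cells under all 16 alternatives tried. Its size rested on the few adult UMIs: in the same order, the log2 fold changes were 6.87, 6.17, 6.07 and 4.43 without adult replicate 1 and 5.01, 4.36, 4.25 and 2.61 without adult replicate 2. After 1 week the value was 3.93 without 1 week replicate 1. Adult replicate 1 and 3 week slice replicate 1 carried one study label and the other 8 libraries carried another. Within the first study label *Cybb* was 6.15 in adult and 37.3 in 3 week slice microglia, and within the second it was 1.80 and 37.9, so the 3 week libraries were higher within both.

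Among the cultured groups, *Cybb* was 5.28-fold higher in *in vitro* than in 3 week slice microglia, the groups of equal culture time (log2 2.40 ± 0.40, edgeR adjusted p = 0.0011). It fell by 1.75 on the log2 scale from 1 day to 3 weeks in slices (adjusted p = 0.0085), and this was -1.46 with an adjusted p of 0.067 without 1 day replicate 2. The fall from 1 week to 3 weeks was 1.65 with an adjusted p of 0.0498. Without 1 week replicate 1 it was -0.75 (adjusted p = 0.676), without 3 week replicate 1 it was -1.59 (adjusted p = 0.086) and without 3 week replicate 2 it was -1.60 (adjusted p = 0.143), so it did not hold without any of these libraries. In order of level the groups were *in vitro*, 1 day, 1 week, 3 weeks and adult, and of neighbouring groups *in vitro* and 1 day (log2 0.65, adjusted p = 0.21) and 1 day and 1 week (log2 -0.10, adjusted p = 0.92) did not pass the test. The 2 *in vitro* libraries nonetheless lay above both 1 day libraries, and that difference was called in 3 of 16 alternatives.

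**Figure D1:**
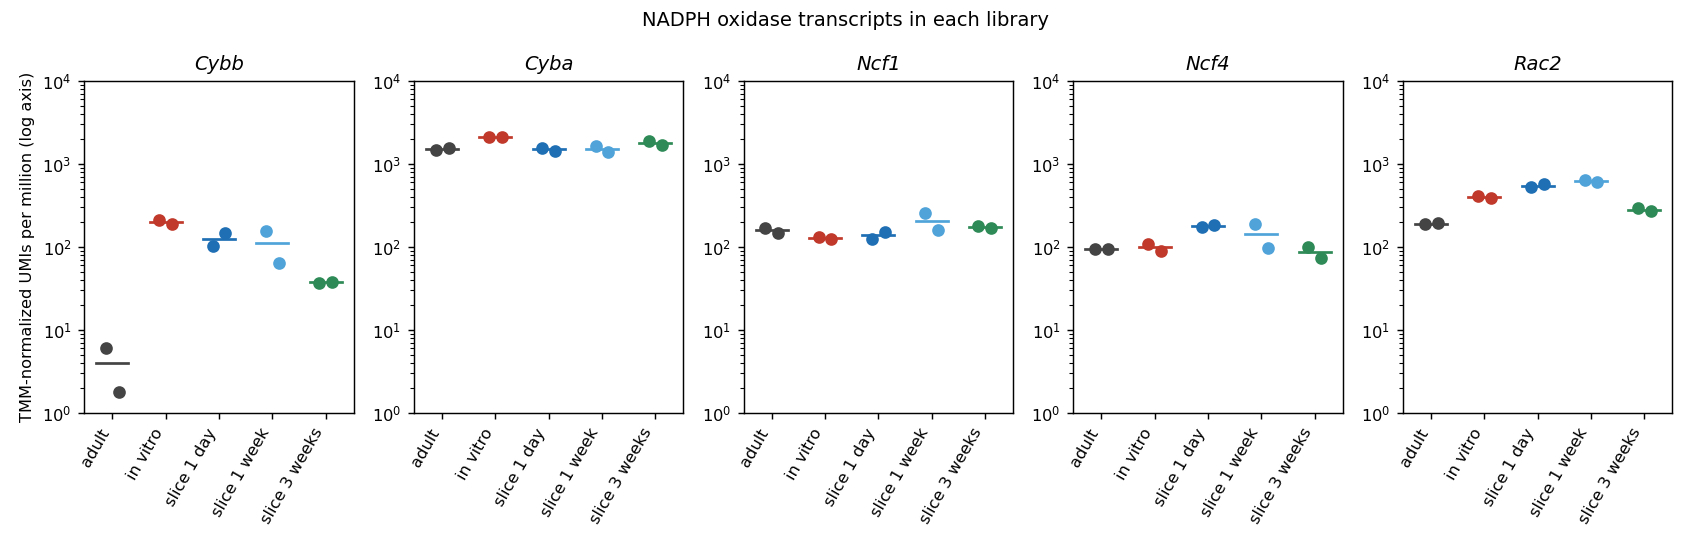
Level of each oxidase gene in each library, in TMM-scaled UMIs per library total of 1000000 (CPM) on a log axis, with 1 point per library and a line at the mean of each group's 2 libraries. The lowest *Cybb* value is 1.80 (adult replicate 2) and the highest 209 (*in vitro* replicate 1), while *Cyba* stays between 1415 and 2117.

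*Cyba*, whose protein forms the membrane heterodimer with NOX2, stood at 1484 and 1578 CPM in adult microglia and at 2117 and 2093 in *in vitro* microglia. In slices it stood at 1560 and 1441 after 1 day, 1648 and 1415 after 1 week, and 1909 and 1674 after 3 weeks. The slice libraries of 1 day and of 1 week overlapped the adult ones. The *in vitro* libraries were above all others, by 1.38-fold over adult microglia (log2 0.46 ± 0.14, edgeR adjusted p = 0.020), which was under the fold change of 1.5 that a call needed. This difference was called in 4 of 16 alternatives, and that from 1 day slices (log2 0.49, adjusted p = 0.024) in 2 of 16. *Cyba* lies on chromosome 8 from 122424776 to 122432930, where the gene model Gm20388 on the other strand overlaps it.

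The count of *Cyba* UMIs for each *Cybb* UMI therefore moved with *Cybb*. It was 241 and 875 in the adult libraries, 10.1 and 11.1 in the *in vitro* libraries, 15.0 and 9.69 after 1 day, 10.4 and 22.1 after 1 week, and 51.3 and 44.2 after 3 weeks in slices. Both adult ratios were above both 3 week slice ratios, which were above the other 6. The ratio is of molecules captured at the 3′ end and can be set side by side across groups only, since capture may differ between the 2 genes.

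*Rac2* followed in size of difference. Its levels were 189 and 194 CPM in adult, 406 and 390 in *in vitro*, 529 and 568 in 1 day slice, 642 and 609 in 1 week slice, and 295 and 269 in 3 week slice microglia. No group overlapped another in these values. *Rac2* was 2.08-fold higher in *in vitro* than in adult microglia (log2 1.06 ± 0.13, edgeR adjusted p = 8.1e-05), and against adult microglia its log2 fold change was 1.52 in slices after 1 day (adjusted p = 1.2e-05) and 1.71 after 1 week (adjusted p = 2.0e-05). After 3 weeks it was 0.56 (adjusted p = 0.0074), a fold of 1.47 that was not called, and it was called in 7 of 16 alternatives.

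In slices *Rac2* was lower after 3 weeks than after 1 day (log2 -0.96, edgeR adjusted p = 0.00079) and than after 1 week (log2 -1.15, adjusted p = 0.0021). Between 1 day and 1 week the difference was 0.19 (adjusted p = 0.42). *In vitro* microglia stood between the early and the late slices, at log2 0.50 above 3 weeks (adjusted p = 0.014) and -0.46 from 1 day (adjusted p = 0.021), both under the fold threshold. The gene lies on chromosome 15 from 78559167 to 78572783, on the minus strand. *Ncf4* lies on the same chromosome, from 78244801 to 78262580 on the plus strand.

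*Ncf4* was 93.8 and 95.05 CPM in adult and 108 and 90.9 in *in vitro* microglia. In slices it was 174 and 183 after 1 day, 190 and 97.2 after 1 week, and 99.7 and 73.8 after 3 weeks. The 1 day libraries were above all others but 1 week replicate 1, and the 2 libraries of 1 week were far apart. *Ncf4* was higher after 1 day in slices than in adult microglia (log2 0.92 ± 0.24, edgeR adjusted p = 0.0082) and than in *in vitro* microglia (*in vitro* minus 1 day -0.85, adjusted p = 0.019). It was lower after 3 weeks than after 1 day (log2 -1.05 ± 0.24, adjusted p = 0.0096). The difference from *in vitro* microglia did not pass without any 1 of the 4 libraries (log2 -0.90 to -0.66, largest adjusted p = 0.166), and the one between 3 weeks and 1 day was -1.003 without 1 day replicate 2 (adjusted p = 0.058) and -0.83 without 3 week replicate 2 (adjusted p = 0.057).

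*Ncf1* was 171 and 147 CPM in adult, 132 and 124 in *in vitro*, 123 and 153 in 1 day slice, 254 and 159 in 1 week slice, and 177 and 171 in 3 week slice microglia. The *in vitro* libraries were below both adult libraries, and 1 week replicate 1 was the highest. No difference in *Ncf1* passed the threshold in any of the 9 comparisons, with log2 fold changes from -0.45 to 0.61. Among the alternatives it was called in 4 of 16 between 1 day and 1 week and in 3 of 16 between 1 day and 3 weeks. Against adult microglia it was called in 2 of 16 for *in vitro*, 1 day and 1 week each and in 1 of 16 for 3 weeks. Its gene model overlaps that of *Gtf2ird2* on the other strand. The authors counted with the default parameters of Cell Ranger and state no separate strand setting.

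**Figure D2:**
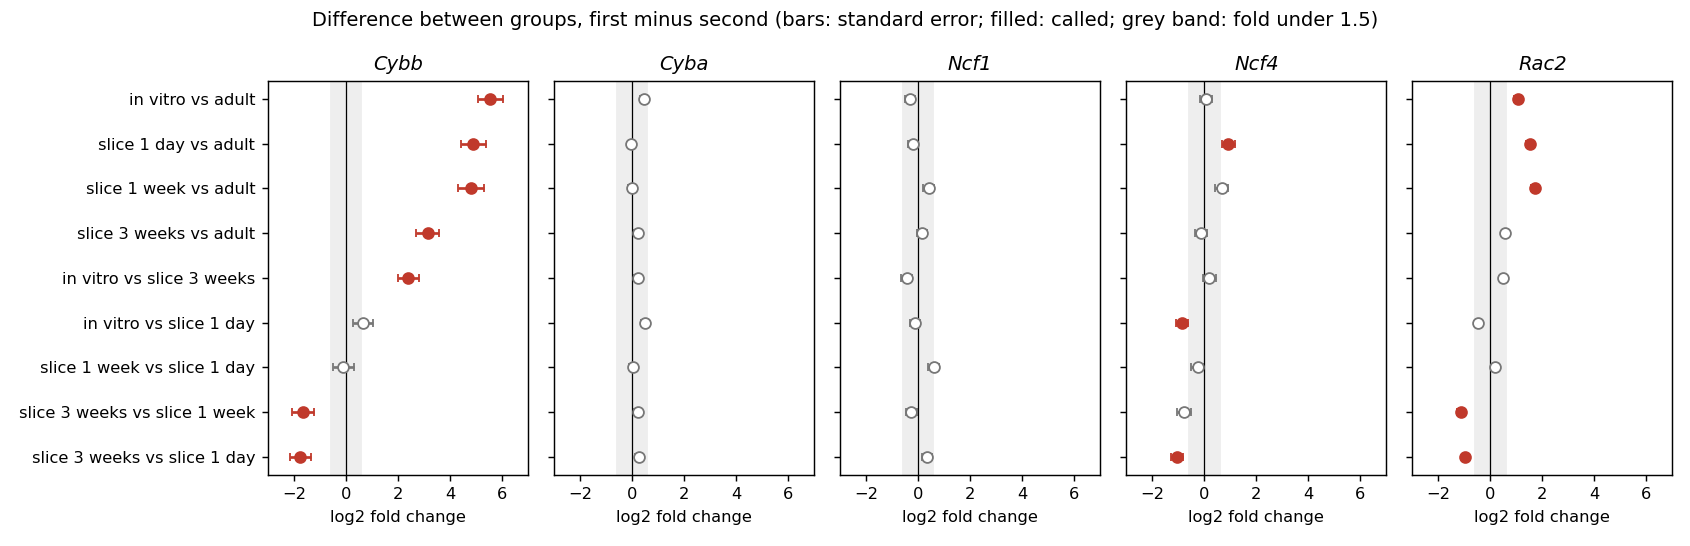
Log2 fold change of each oxidase gene in each of the 9 comparisons, with bars for the standard error and filled points for differences called at an edgeR adjusted p under 0.05 and a fold change above 1.5. *Cybb* has the largest values against adult microglia, from 3.14 after 3 weeks in slices to 5.54 in *in vitro* microglia.

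Counted by comparison, 2 of the 5 genes were higher in *in vitro* than in adult microglia, *Cybb* and *Rac2*, where 22.4% of all genes tested were called higher. In slices 3 of 5 were higher than in adult microglia after 1 day (24.9% of all genes called higher), 2 of 5 after 1 week (15.0%) and 1 of 5 after 3 weeks (17.9%). The count after 3 weeks lay near the share of all genes. With 5 genes, no more is read from the other counts.

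Between the cultured groups, 1 of 5 was higher in *in vitro* than in 3 week slice microglia (13.3% of all genes called higher) and 1 of 5 lower than in 1 day slice microglia (18.6% of all genes called lower). From 1 day to 3 weeks in slices 3 of 5 fell, where 12.8% of all genes were called lower, and from 1 week to 3 weeks 2 of 5 fell, where 3.49% were. Between 1 day and 1 week edgeR called 0 of 5, where 10.2% of all genes were called in either direction. There 1 gene, *Ncf1*, had an unadjusted p under 0.05, namely 0.016, and DESeq2 called 1. Comparisons of cultured groups with adult microglia share the adult libraries, and the slice comparisons share slice libraries.

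Neutrophils use the same oxidase, and cells rich in neutrophil transcripts were present in the early slices. Cells with at least 3% of their UMIs in 10 neutrophil markers numbered 62 of 518 and 109 of 1014 after 1 day and 24 of 148 and 1 of 61 after 1 week, and there were none in the adult, *in vitro* or 3 week libraries. They were compared with the cells that were rich in neither neutrophil nor monocyte markers, 442 and 884 cells in the 1 day libraries, called the other cells here; the 14 and 21 monocyte marker cells of these libraries were in neither class. In 1 day replicate 1 *Ncf1* was 584 CPM in the neutrophil marker cells and 102 in the other cells, *Ncf4* was 814 and 144, and *Rac2* was 2491 and 444. In 1 day replicate 2 the pairs were 541 and 121 for *Ncf1*, 650 and 142 for *Ncf4*, and 1740 and 471 for *Rac2*.

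The 3 cytosolic genes were thus 3.70 to 5.72 times higher in these cells than in the other cells in the 1 day libraries, and 2.27 to 2.95 times higher in 1 week replicate 1. *Cyba* was 1.29 to 1.39 times higher in all 3 libraries. *Cybb* differed between the libraries: it was 18.6 CPM in the neutrophil marker cells of 1 day replicate 1, from 3 UMIs, against 109 in the others, but 395 against 128 in 1 day replicate 2 and 474 against 96.5 in 1 week replicate 1. Of the *Ncf4* UMIs of neutrophil marker cells and other cells together, 21.0%, 28.1% and 31.8% came from the neutrophil marker cells. In the monocyte marker cells all 5 genes were 1.45 to 3.47 times higher than in the other cells.

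**Figure D3:**
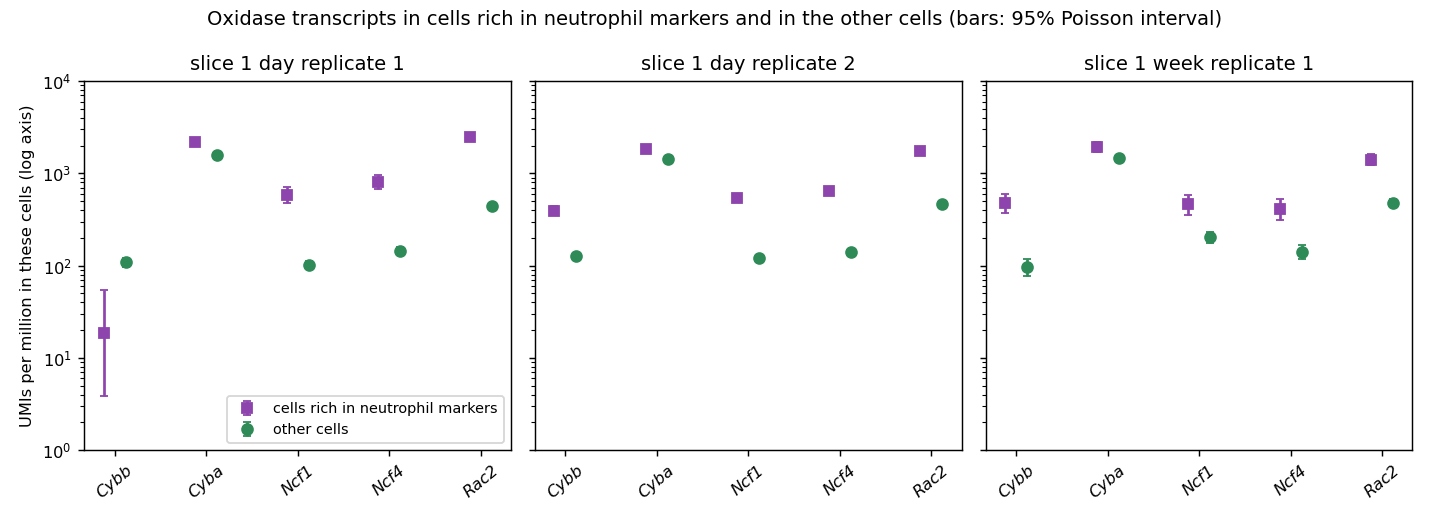
Level of each oxidase gene in cells rich in neutrophil markers (squares) and in the other cells, without monocyte marker cells (circles), of the 3 libraries with 24 or more such cells, in CPM on a log axis, with 95% Poisson intervals. *Ncf1*, *Ncf4* and *Rac2* are higher in the marker cells in all 3 libraries, and *Cybb* is lower in them in 1 day replicate 1 and higher in the other two.

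Without the neutrophil marker cells, against adult microglia, *Cybb* remained 4.78 higher on the log2 scale after 1 day and 4.29 after 1 week, and *Rac2* 1.25 and 1.48, and all 4 differences were still called. *Ncf4* after 1 day was 0.61 (edgeR adjusted p = 0.015), and its difference from *in vitro* microglia was -0.54 and no longer called. From 1 week to 3 weeks the difference in *Cybb* was -1.15 (adjusted p = 0.096) and was not called, while that in *Rac2* was -0.92 (adjusted p = 0.0072). From 1 day to 3 weeks *Cybb*, *Ncf4* and *Rac2* still fell, by 1.64, 0.74 and 0.69 on the log2 scale. *Ncf1* was then higher after 3 weeks than after 1 day (log2 0.65, adjusted p = 0.010) and higher after 1 week than after 1 day (log2 0.71, adjusted p = 0.020). Neutrophil markers also summed to 731 and 4469 CPM in those other cells of the 1 day libraries and to 5728 in those of 1 week replicate 1. If that signal were free RNA with the makeup of the marker cells, the same share of their oxidase level would equal, over these 3 libraries, 0.0774% to 10.9% of the *Cybb* level of the other cells, 0.626% to 2.89% for *Cyba*, 2.58% to 8.43% for *Ncf1*, 2.54% to 8.63% for *Ncf4* and 2.53% to 6.97% for *Rac2*. The makeup of the free RNA was not measured.

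A wider exclusion left out all cells with 3 or more detected markers of another cell class, and with them 1 day replicate 2 and 1 week replicate 1, which kept too few cells. It marked 1009 of 1014 and 148 of 148 cells of these libraries. The 1 day and 1 week groups then rested on 1 library each, of 267 and 55 cells. Loss of a library and loss of other cell types cannot be told apart here. Against adult microglia after 1 day *Ncf4* was then 0.38 (edgeR adjusted p = 0.231) and not called, and *Ncf1* was -0.75 (adjusted p = 0.017) and called lower, while *Cybb* (4.50) and *Rac2* (1.04) were still called. From 1 day to 3 weeks none of the 3 falls was called, with *Cybb* at -1.33 (adjusted p = 0.080), *Ncf4* at -0.50 (adjusted p = 0.200) and *Rac2* at -0.48 (adjusted p = 0.121), and the 1 gene called was *Ncf1*, higher after 3 weeks (0.88, adjusted p = 0.034). From 1 week to 3 weeks *Cybb* was -0.76 (adjusted p = 0.709) and *Rac2* -1.14 (adjusted p = 0.112), neither called.

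The share of cells with a transcript was compared after each cell was thinned to 1800 UMIs, which left 16910 cells and, at the lowest, 54.1% of a library's cells, in adult replicate 2. *Cybb* was found in 29 of 3386 and 2 of 1909 adult cells, 0.856% and 0.105%. Mean shares ± SD (n = 2) were 0.481% ± 0.532 in adult, 27.7% ± 0.870 in *in vitro*, 16.7% ± 2.90 in 1 day slice, 14.2% ± 6.43 in 1 week slice and 4.83% ± 0.548 in 3 week slice microglia. Without thinning they were 0.867%, 84.2%, 38.7%, 29.7% and 11.4%, in the same order. The shares kept the order of the *Cybb* levels.

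*Cyba* was found in 88% to 96% of cells in every library. *Rac2* was found in 32.2% of adult, 46.7% of *in vitro*, 57.7% of 1 day slice, 64.2% of 1 week slice and 37.1% of 3 week slice cells. The means for *Ncf1* lay between 18.6% *in vitro* and 28.4% in adult cells, and those for *Ncf4* between 13.7% in 3 week slices and 26.0% in 1 day slices. No cell class that lacks the oxidase was numerous enough to give a background share: cells with red blood cell markers numbered 11 in adult replicate 1 and 6 in 1 day replicate 1.

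**Figure D4:**
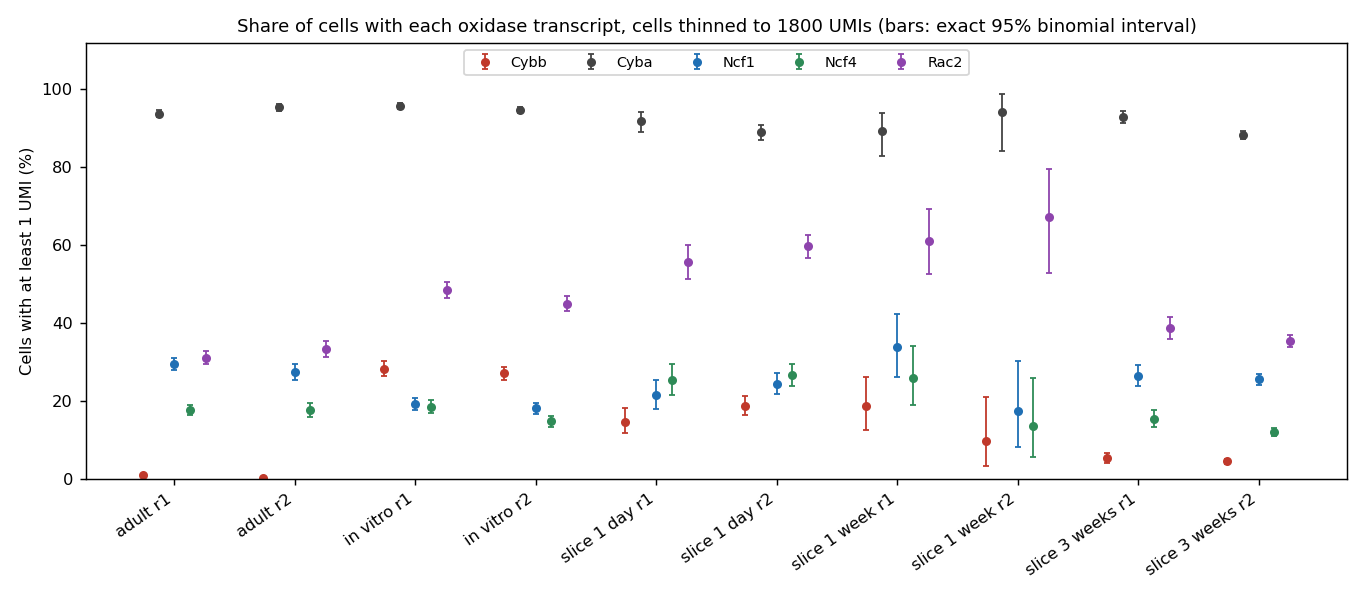
Percent of cells with at least 1 UMI of each oxidase gene in each library, with all cells thinned to 1800 UMIs and exact 95% binomial intervals that cover counting error only. *Cybb* goes from 0.105% and 0.856% in the adult libraries to 27.7% on average *in vitro*, and *Cyba* is near the top of the axis in all 10 libraries.

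In these thinned cells a mean of 1.73 of the 5 genes was detected per adult cell, 2.05 *in vitro*, and 2.14, 2.15 and 1.72 in slices by time. Both membrane subunits, *Cybb* and *Cyba*, were found together in 0.797% and 0.105% of adult cells, in 27.5% and 25.7% of *in vitro* cells and in 5.04% and 4.15% of 3 week slice cells. The count of cells with both was 0.993 to 1.08 times the count that the separate shares give, over the 8 libraries with enough cells. *Cyba* was found in most cells of every library, which limits how far this ratio can rise, so nothing is read from it. *Ncf1* and *Ncf4* were together 0.927 to 1.49 times as often as their separate shares give, and *Ncf1* and *Rac2* 0.988 to 1.29 times. Without neutrophil marker cells these ranges were 0.653 to 1.17 and 0.938 to 1.296. *Cybb* and *Ncf4* ranged from 0.554 to 1.42 times, and to 1.70 without those cells, so the pairs were found together more often than their shares give in some libraries and less often in others.

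Within the 3 week slices, *Cybb* was spread unevenly over the microglia. In cells with a UMI of *Gpnmb*, a lysosomal glycoprotein of lipid-laden macrophages, it was 87.5 CPM (95% Poisson interval 55.5 to 131, 146 cells, 23 UMIs) in replicate 1 and 117 (91.9 to 147, 346 cells, 73 UMIs) in replicate 2. In cells without it, *Cybb* was 30.5 (22.9 to 39.9) and 21.6 (18.1 to 25.7). The intervals of cells with and without *Gpnmb* lay apart in both libraries, at ratios of 2.86 and 5.42.

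A split by *Spp1*, the gene of the secreted protein osteopontin, gave *Cybb* levels of 49.1 with and 20.3 without in replicate 1 and 92.7 with and 12.3 without in replicate 2. With *P2ry12*, a purinergic receptor of resting microglia, *Cybb* was 18.6 against 71.6 without it in replicate 1 and 12.5 against 51.8 in replicate 2. *Ncf1* had the opposite pattern, with 206 in cells with *P2ry12* and 142 in those without in replicate 1, and 200 and 136 in replicate 2. It was 0.679 and 0.588 times as high in cells with *Gpnmb* as in cells without, with intervals that overlapped in replicate 1. Cells were thinned to equal depth before these splits, and the Poisson intervals cover counting error within a library only.

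**Figure D5:**
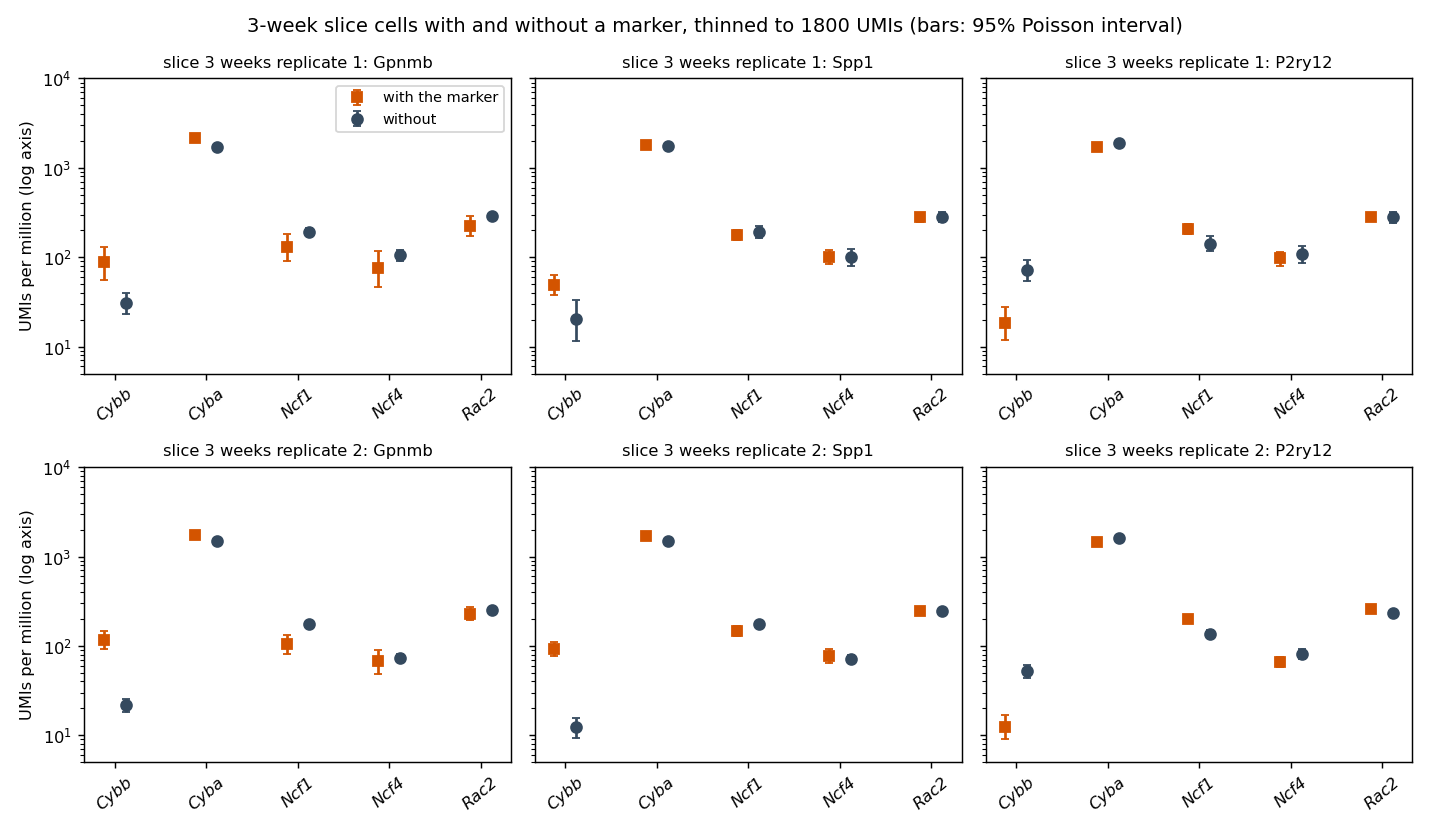
Level of each oxidase gene in 3 week slice cells with (squares) and without (circles) a UMI of *Gpnmb*, *Spp1* or *P2ry12*, in CPM on a log axis, for both libraries, with 95% Poisson intervals. *Cybb* is higher with *Gpnmb* and *Spp1* and lower with *P2ry12* in both libraries, while *Cyba* differs by a smaller factor.

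The same splits of *in vitro* cells, and a split by cycling markers, gave *Cybb* ratios of 0.87 to 1.24 with overlapping intervals. In 1 day slices the ratio of *Cybb* with *P2ry12* to that without was 0.363 in replicate 1 and 1.15 in replicate 2. Among adult cells of replicate 1, *Cybb* was 75.1 CPM in 111 cells with the interferon-induced gene *Ifit3*, from 15 UMIs, and 4.41 in the others. In 137 cells of that library with the antigen presentation gene *H2-Ab1* it was 44.6, from 11 UMIs, against 5.13 in the others. Thinned adult replicate 2 held 3 *Cybb* UMIs, too few for a split. In the other groups with enough cells the intervals overlapped, with ratios of 0.878 and 1.09 *in vitro* and 0.694 and 1.04 in 3 week slices for *Ifit3*, and of 0.776 and 0.949 in 1 day and 0.524 and 0.662 in 3 week slices for *H2-Ab1*. *Cyba* was lower in cycling cells of 1 day replicate 2 (0.596 times) and of both 3 week libraries (0.834 and 0.719 times).

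Of the partners outside the 5 genes, *Rac1*, the widely expressed relative of *Rac2*, averaged 376 to 432 CPM over the 5 groups and was called in no comparison. *BC017643*, known from background as an older symbol of the gene for the endoplasmic reticulum chaperone of NOX2, an identity that no table used here states, was 117 ± 0.916 CPM in adult microglia. It was 46.5 *in vitro* and, by time in slices, 47.9, 39.3 and 42.1. It was lower than in adult microglia by log2 -1.34, -1.30, -1.65 and -1.48 (largest edgeR adjusted p = 0.00046) and was not called between cultured groups. *BC017643* and *Cybb* thus differed in opposite directions in these 4 comparisons, which share the adult libraries.

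Of 9 tested genes that remove superoxide and peroxide, 9 were higher in *in vitro* than in adult microglia, where 22.4% of all genes were called higher, at a median log2 fold change of 1.53 against -0.11 over all genes tested. At each of the 3 slice times 8 of 9 were higher than in adult microglia, where 24.9%, 15.0% and 17.9% of all genes were called higher by time, with medians of 1.13, 1.18 and 0.98. None was called lower in any of the 4 comparisons. The largest *in vitro* was the peroxiredoxin gene *Prdx1*, at 3322 CPM against 416 in adult microglia (log2 3.00), followed by *Prdx5* (2.10), the lipid peroxide reductase gene *Gpx4* (1.91) and *Prdx6* (1.82). After 3 weeks in slices the largest were *Prdx6* (1.25), *Sod1* (1.20), the cytosolic superoxide dismutase gene, and *Prdx1* (1.16).

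Of 15 kinases, lipid enzymes and channels of oxidase assembly, 2 were higher and 5 lower *in vitro* than in adult microglia, and 0 higher and 7 lower in 3 week slices. Of all genes tested, 22.4% were called higher and 28.5% lower *in vitro*, and 17.9% higher and 17.5% lower in 3 week slices. After 1 day 0 were higher and 9 lower (24.9% and 25.3% of all genes), and after 1 week 1 was higher and 4 lower (15.0% and 13.6%). *Prkca*, a protein kinase C gene, was 83.3 CPM in adult, 2.52 *in vitro* (log2 -5.04) and 11.2 in 3 week slice microglia (log2 -2.94). *Hvcn1*, the proton channel that balances the charge moved by the oxidase, was 158 in adult and 32.9 *in vitro* (log2 -2.26), and in slices it was 34.9 after 1 day (log2 -2.19), 68.3 after 1 week (log2 -1.18) and 138 after 3 weeks, the last not called. *Pak1* was 45.4 in adult and 15.5 in 3 week slice microglia.

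Of 12 regulators of Rac, 3 were higher and 4 lower *in vitro*, and 1 higher and 4 lower in 3 week slices than in adult microglia. After 1 day 4 were higher and 3 lower (24.9% and 25.3% of all genes), and after 1 week 4 were higher and 2 lower (15.0% and 13.6%). The *in vitro* counts lay near the 22.4% of all genes called higher and 28.5% called lower, and in 3 week slices these shares were 17.9% and 17.5%. *Vav3*, a Rac exchange factor, had no UMI in adult microglia. Against a floor of 3 UMIs over the adult group it was at least 192-fold higher *in vitro* and at least 71.6-fold, 52.1-fold and 12.3-fold higher in slices, from the earliest to the latest time. *Arhgap15*, a Rac GTPase activator, was 3.18 CPM in adult, 29.2 *in vitro* (log2 3.13) and 1.48 in 3 week slice microglia (log2 -1.36), so that it differed from adult microglia in opposite directions. 

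Of 6 transcription factors known for oxidase genes, 1 was lower *in vitro* (28.5% of all genes called lower) and 2 in 3 week slices (17.5%), among them *Irf1* (11.8 against 33.2 CPM, log2 -1.53). After 1 day in slices 4 were lower and 1 higher than in adult microglia (25.3% of all genes called lower and 24.9% higher), and after 1 week 1 was lower and 1 higher (13.6% and 15.0%). Of 9 homologues of NOX2 and their partners only 2 had enough counts to be tested, *Duoxa1* and *Noxo1*, which are named here after their values were seen. Against adult microglia both were lower *in vitro* and after 1 day in slices, and *Duoxa1* alone was called lower after 1 week and after 3 weeks. *Duoxa1* was 6.42 CPM in adult microglia, had no UMI *in vitro* or after 1 week, and was 0.131 and 0.199 CPM after 1 day and 3 weeks. *Noxo1* was 3.18 CPM in adult and 0.834 *in vitro*, levels at which few UMIs stand behind each value.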

How the data were processed

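The deposited tables held unnormalized UMI counts of each gene in each cell barcode. The authors made them with Cell Ranger 1.3.0 on mm10 (submitters' processing notes) from 10x Genomics 3′ v2 libraries. They report default parameters and state no separate strand setting. The gene annotation and whether the tables precede the aggregate step are not given in the sources used here. Kept were barcodes with at most 5% of UMIs from mitochondrial genes, 400 genes or more and no more than 30000 UMIs, which left out 578. No doublet caller was run, and the limit of 30000 UMIs was the sole guard. Counts were summed per library, and all 10 libraries were fitted together in edgeR 4.0.16 (quasi-likelihood, TMM scaling, filterByExpr with a minimum count of 10). A gene was called at a Benjamini-Hochberg adjusted p under 0.05 and a fold change above 1.5. Standard errors were derived from the fold change and its F statistic and are approximate. DESeq2 1.42.0 was an alternative, and the script was tested on simulated data. Shares of cells used Python 3.11.15, with cells thinned to 1800 UMIs and shallower cells left out.

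Named were the 5 oxidase genes, the partners *Rac1* and *BC017643*, and, of the other listed genes called in *in vitro* or 3 week slice against adult microglia, up to 8 per comparison with the largest change and an average log2 level of at least 3. The splits shown within a library and the neutrophil marker cells were chosen after their values were seen. The genes and lists were chosen with earlier results of these data known. The series' design text calls the 2 samples per group biological replicates. Libraries with the same replicate number did not deviate together, so they were not treated as pairs. Intervals cover counting error only. One gene that the naming rule covers, not among the 5, is not reported here.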

Additional observations from a re-analysis of the deposited data

How the results depend on the processing

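With 2 libraries per group and as few as 61 cells in a library, precision was lowest for the 1 week slices, and adult *Cybb* rested on 98 UMIs. UMIs per cell without scaling for depth moved the median of all genes to log2 2.04 *in vitro* against adult microglia, 1.49, 1.10 and 1.05 for slices of 1 day, 1 week and 3 weeks against adult, and 0.97 for *in vitro* against 3 week slices. Under it 5 of 5 genes were called in each comparison with adult microglia, 4 *in vitro* against 3 week slices and 2 *in vitro* against 1 day slices, where in the same order 10338, 8675, 5512, 7136, 7076 and 4161 of all 12157 genes were called. With library size alone 2017 of 6735 calls were higher *in vitro* than in adult microglia, against 2719 of 6180 with TMM.

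Relative to the counts in the report, the number of oxidase genes called *in vitro* against adult microglia was 3 with library size alone, with no filter on low counts and with only the 2 groups in the fit. In 1 week slices against adult microglia it was 3 with no filter, only the 2 groups in the fit and DESeq2. In 3 week slices against adult microglia it was 2 with no filter, with all barcodes, with only the 2 groups in the fit and with DESeq2. *In vitro* against 3 week slices it was 2 with no filter and with thinned cells. *In vitro* against 1 day slices it was 2 with library size alone, thinned cells or only the 2 groups in the fit, 3 with no filter, and 0 without cells with 3 markers of another class, which drops 1 day replicate 2 and 1 week replicate 1, or without neutrophil marker cells, with or without monocyte marker cells (both chosen after seeing the data). From 1 day to 1 week it was 1 with DESeq2 and without the neutrophil or the neutrophil and monocyte marker cells. From 1 week to 3 weeks it was 3 with no filter and with DESeq2, 0 without cells with 3 markers of another class and 1 with thinned cells and without the neutrophil or the neutrophil and monocyte marker cells. From 1 day to 3 weeks it was 1 without cells with 3 markers of another class, where *Ncf1* was called and the 3 falls were not, and 4 without the neutrophil or the neutrophil and monocyte marker cells. The causes were not tested.

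Leaving out 1 library at a time, the counts ran from 2 to 3 *in vitro* against adult microglia, 2 to 4 in 1 week slices against adult, 1 to 2 in 3 week slices against adult, 1 to 2 *in vitro* against 3 week slices, 0 to 0 *in vitro* against 1 day slices, 0 to 1 from 1 day to 1 week, 1 to 3 from 1 week to 3 weeks, and 1 to 3 from 1 day to 3 weeks. A lone library was assumed to vary like the other groups. Replicate numbers did not pair the libraries (correlations -0.112 to 0.0941). With the replicate number as a block, 1 gene was called from 1 week to 3 weeks, *Cybb* being -1.60 (adjusted p = 0.061), and no other count changed.

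The number of oxidase genes detected per cell was 1.26, 1.502, 1.58, 1.53 and 1.27 at 1000 UMIs, 2.19, 2.56, 2.58, 2.73 and 2.18 at 3000 UMIs, and 1.95, 4.25, 3.47, 3.16 and 2.77 without thinning (adult, *in vitro*, then slices of 1 day, 1 week and 3 weeks), and at 1800 UMIs it was 1.99 after 1 day without neutrophil marker cells.

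Only log2 fold changes that were not called in the main fit of all 10 libraries changed sign, 51 values in all. Those that changed sign against adult microglia with UMIs per cell were called under that setting. With UMIs per cell, *Ncf1* was 1.83 *in vitro* and 1.34 in 1 day slices against adult, 0.62 and 0.49 *in vitro* against 3 week and 1 day slices, and -0.13 from 1 day to 3 weeks. *Cyba* was then 1.52 in 1 day slices against adult, -0.31 from 1 day to 1 week and -0.17 from 1 day to 3 weeks, *Ncf4* 1.00 in 3 week slices against adult, and *Rac2* 0.16 *in vitro* against 1 day slices and -0.17 from 1 day to 1 week. With library size alone, *Ncf4* was -0.23 *in vitro* against adult, *Cyba* -0.20 in 1 week slices against adult and -0.052 from 1 day to 1 week, and *Ncf1* -0.067 in 3 week slices against adult. *Cyba* in 1 day slices against adult was 0.0026 with no filter, 0.030 with all barcodes, 0.066 with thinned cells, 0.021 with 2 groups and 0.020 with DESeq2, and *Ncf1* was 0.046 with thinned cells. *Cyba* in 1 week slices against adult was -0.048 with no filter, -0.12 without cells with 3 markers of another class, -0.11 with thinned cells, -0.0031 with the replicate block, -0.080 without neutrophil marker cells and -0.036 without neutrophil and monocyte marker cells, and *Ncf4* was -0.048 without cells with 3 markers. *Ncf1* *in vitro* against 1 day slices was 0.024 with no filter, 0.44 without cells with 3 markers, 0.20 without neutrophil and 0.23 without neutrophil and monocyte marker cells, and *Rac2* was 0.027 without cells with 3 markers. From 1 day to 1 week, *Cyba* was -0.051 with no filter, -0.029 without cells with 3 markers, -0.17 with thinned cells and -0.012 without neutrophil marker cells, and *Rac2* was -0.11 with thinned cells. From 1 week to 3 weeks *Ncf1* was 0.10 without cells with 3 markers. With 1 library left out, *Cyba* ran from -0.085 to 0.087 in 1 day and -0.085 to 0.070 in 1 week slices against adult, *Ncf4* from -0.32 to 0.14 in 3 week slices against adult, *Ncf1* from -0.26 to 0.10 *in vitro* against 1 day slices, *Cybb* from -1.01 to 0.24, *Cyba* from -0.10 to 0.076 and *Ncf4* from -0.90 to 0.0044 from 1 day to 1 week, and *Ncf1* from -0.46 to 0.16 from 1 week to 3 weeks.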

Other observations

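Genes whose levels followed those of the oxidase genes most closely over the 10 libraries were listed among 3917 genes with an average log2 level of at least 5, by Pearson's r of log2 CPM. The libraries of a group share their culture, depth and cell composition, so the values are descriptions. *Cybb* was followed by *Sin3b* (r = 0.981), *Clec4n* (0.978), a C-type lectin gene, and *Gsn* (0.976), the gelsolin gene. *Ncf4* was followed by *Stfa3* (0.954), *Wfdc21* (0.951) and *Hmgn2* (0.937), of which *Stfa3* and *Wfdc21* are known from neutrophils. *Rac2* was followed by *Anxa11* (0.962), *Med25* (0.959) and *Csf2rb* (0.957), a cytokine receptor gene. *Cyba* was followed by *Nagk* (0.959), *Trappc3* (0.907) and *Bri3* (0.900), and *Ncf1* less closely by *Chst12* (0.808), *Slc38a1* (0.795) and *Arsb* (0.759). Among the oxidase genes themselves, *Cybb* and *Rac2* had r = 0.83 and *Ncf4* and *Rac2* r = 0.69.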
